A study of Mus musculus with 12 samples.

Results

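Splenic CD4+ T cells that were collected directly after purification, without culture, were compared between mice with ligature-induced periodontitis (LIP group) and control mice (CTL group). The comparison used 6 of the 12 libraries of the series, 3 per group, chosen by the group and day in their titles. Of 55414 gene records, 14064 passed a filter on low counts and were tested. All animals were male wild-type BALB/c mice of 18 weeks. In the LIP group a silk ligature lay around the upper second molar on both sides for 14 days, whereas the CTL mice received anesthesia and no ligature. The cells were the CD4+ fraction of the whole spleen, obtained by magnetic negative selection, and therefore a mixture of naive, memory and regulatory cells taken at a distance from the gum. The other 6 libraries came from cells cultured for 2 days with IL-2 and antibodies to TCRβ and CD28. The libraries are named here by group and the number in their title (CTL 88, CTL 89, CTL 94, LIP 92, LIP 93 and LIP 94). Whether each library came from 1 mouse was not given in the sources used here, so the p-values cover the spread between these libraries, which may be technical.

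CD4+ T cells of the spleen are mostly quiescent recirculating cells that respond to antigen and to cytokines. Heat shock proteins of the HSP70 and HSP90 families are ATP-driven chaperones that fold other proteins with the help of co-chaperones, and heat shock factor 1 drives many of their genes through heat shock elements when proteins misfold. Immediate early genes, including the FOS and JUN subunits of the AP-1 transcription factor, are transcribed within minutes of a signal and their mRNAs decay quickly. Cold-inducible RNA-binding proteins bind mRNAs and are known for higher expression at mild hypothermia.

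The libraries held 6249018 to 7845676 expected counts, and 3 counts corresponded to 0.395 to 0.497 CPM, the unit of level used below, which is a library's count of a gene scaled by its TMM-normalized total. The markers matched the labelled cell type. Cd4, the coreceptor, was at 584 to 686 CPM and Cd3e, a chain of the T cell receptor complex, at 494 to 572 CPM, whereas Cd8a was at 0.527 to 1.49 CPM. Of the B cell markers, Ighm was at 105 to 137 CPM, and Ms4a1 (CD20) reached at most 0.776 CPM. The summed B cell markers were at 142, 126 and 153 CPM in the CTL libraries and 124, 120 and 148 CPM in the LIP libraries. The neutrophil genes S100a8, S100a9 and Ly6g had no count, and the summed myeloid markers ranged from 25 to 43.7 CPM among CTL libraries and from 31.3 to 39.1 CPM among LIP libraries. Pancreatic acinar markers summed to 31.4 CPM in LIP 93 and 9.15 CPM in LIP 94, against 0.658 to 1.31 CPM in the other 4 libraries, and none of them reached the filter. Mitochondrially encoded RNA was 1.68% to 1.93% of the counts of CTL libraries and 1.56% of those of each LIP library. In a principal component analysis of all tested genes, the first component (39.5% of the variance) placed CTL 88 and CTL 89 at -17.9 and -34.5, and CTL 94 at 12.4, between the LIP libraries (7.31, 15.2 and 17.5). On the second component (18.5%), CTL 94 lay at 19.8 beside CTL 88 (17.4), with CTL 89 at -12 and the LIP libraries from -9.07 to -7.12. Calls that appeared when CTL 94 was left out are given beside the genes and lists below.

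In freshly purified cells the genes that were lower in the LIP group included many cytosolic chaperones and 3 AP-1 genes. With edgeR's quasi-likelihood test, 52 genes were lower (0.37% of those tested) and 8 were higher (0.0569%) at a Benjamini-Hochberg adjusted p under 0.05, a gene so selected being termed called. Of the 52 lower genes, 20 encoded cytosolic, mitochondrial or endoplasmic reticulum chaperones and co-chaperones 4 were AP-1 or other immediate early genes, and the other 28 had other roles. Most changes were below 2-fold, with 48 of the 60 called genes within 1 log2 unit of 0 and a median absolute log2 change of 0.72, against 0.14 over all tested genes. The median log2 change of all genes was 0.01. The 3 LIP libraries did not overlap the 3 CTL libraries for any of the 60 called genes, and among all tested genes 9.54% lay wholly lower and 9.66% wholly higher in the LIP group. The counts depended on single libraries. Without CTL 94, 401 genes were lower (2.8% of 14343 tested) and 257 higher (1.79%). Without CTL 88, LIP 92, LIP 93 or LIP 94 the lower genes numbered 13 to 28 and the higher genes at most 1, and without CTL 89 there were 77 lower and 19 higher genes. By DESeq2, 168 genes were lower (1.19%) and 38 higher (0.27%). The 13 genes called whichever library was left out were Hsph1, Stip1, Hsp90aa1, Hsp90ab1, Ahsa1, Ahsa2, Hspa8, Fkbp4, Gm15459, Pde3b, Lman2l, Banp and Cpt1a, all lower in the LIP group. Of these 13, Hsp90aa1, Ahsa1, Ahsa2, Fkbp4, Banp and Cpt1a were not called when all 12 libraries shared 1 fit, with adjusted p-values of 0.0577 to 0.341 at nearly the same log2 changes. Among the gene lists described below, those of HSP90 (6 to 9 genes called) and HSP70 (2 to 4) held a called gene whichever library was left out, and every other list had none in at least 1 of these fits.

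**Figure D1:**
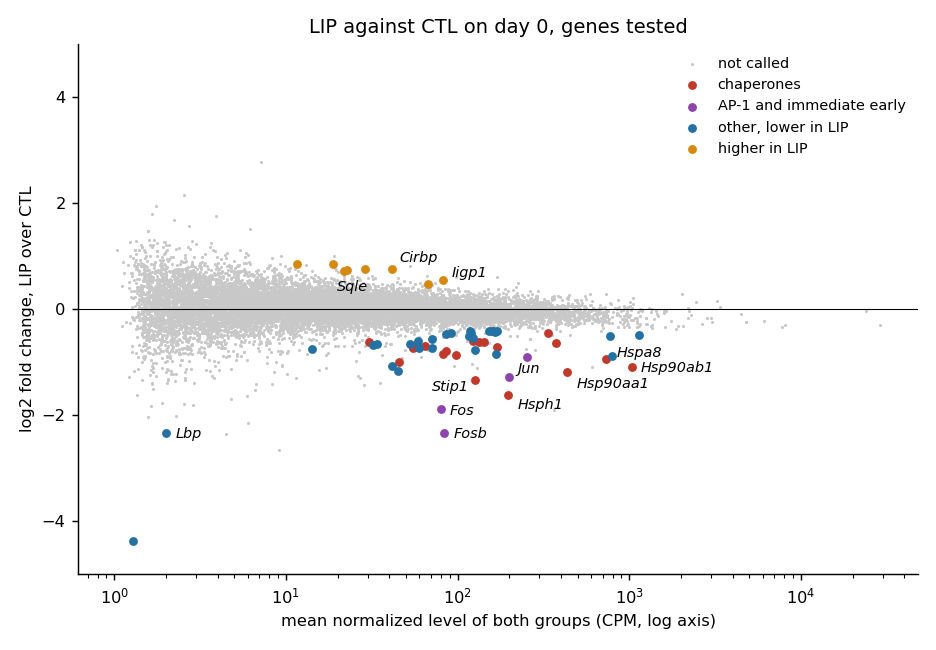
Each point is a gene tested on day 0, with its mean level on the horizontal axis and its log2 change, LIP against CTL, on the vertical axis. The called genes are colored by group, and the chaperones lie below 0 with the AP-1 and immediate early genes; 2 genes lie beyond the vertical range.

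The HSP90 machine held the largest number of called genes of any list, with 9 of its 15 tested members lower in the LIP group. Hsp90aa1, the stress-inducible cytosolic HSP90, stood at 618, 542 and 659 CPM in CTL 88, CTL 89 and CTL 94 and at 274, 265 and 262 CPM in LIP 92, LIP 93 and LIP 94. Hsp90ab1, the constitutive cytosolic form, stood at 1434, 1474 and 1307 CPM in the CTL libraries and at 653, 646 and 682 CPM in the LIP libraries. The lowest CTL library of both genes was thus well above the highest LIP library, and CTL 94 sat with the other CTL libraries. Their log2 changes were -1.18 ± 0.08 (SE) and -1.09 ± 0.08, each with an adjusted p of 3.19e-05. Stip1, the adaptor that passes clients from HSP70 to HSP90, had 181, 200 and 165 CPM in the CTL libraries against 69.7, 70.8 and 74.3 CPM (log2 change -1.35 ± 0.08 SE, adjusted p = 1.56e-05). The ATPase activators followed, with Ahsa1 at 102, 107 and 110 CPM against 59.0, 56.6 and 62.4 CPM and Ahsa2 at 61.9, 61.6 and 58.8 CPM against 33.1, 28.6 and 29.8 CPM. These are log2 changes of -0.84 and -0.99. Fkbp4, an immunophilin co-chaperone of steroid receptors, fell by 0.79 on the log2 scale. Chordc1, Cacybp and Ptges3, the last of which encodes the p23 co-chaperone, had log2 changes of -0.71, -0.69 and -0.61. Over the 15 tested members the median log2 change was -0.69, and it was -0.58 without CTL 94, with 9 called lower in that fit too. Their summed level was 3435, 3402 and 3433 CPM in the CTL libraries and 1943, 1919 and 1963 CPM in the LIP libraries (exact permutation test, two-sided p = 0.1, the smallest that 3 against 3 allows). Several other lists, those of HSP70 and of regulatory T cells among them, reached the same smallest p in this test.

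Hsph1 had the smallest p of all genes tested. It encodes HSP110, which exchanges nucleotide on HSP70 and holds unfolded proteins, and lies at chr5:149537636-149560156 of GRCm39. It was measured at 289, 279 and 328 CPM in the CTL libraries and at 96.2, 92.5 and 103 CPM in the LIP libraries, about 3 times apart with narrow spread in both groups. The log2 change was -1.62 ± 0.08 (SE), or 0.325-fold, with an adjusted p of 3.00e-06, and it stayed between -1.67 and -1.55 when any 1 library was left out. Hspa8, the constitutive HSP70, stood at 902, 1018 and 967 CPM against 471, 466 and 564 CPM (log2 change -0.94 ± 0.09 SE, adjusted p = 0.000421). Reads of Hspa8 may have been shared with the called pseudogene record Gm15459 (log2 change -0.88), since 92% of its 31-base words also occur in Hspa8. St13, an HSP70-interacting protein, and Hspa4l, another HSP110-type exchange factor, changed by -0.62 and -0.74 log2 units. Those 4 genes were the called ones among 16 tested members of the HSP70 list, whose median log2 change was -0.20 (-0.31 without CTL 89).

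The heat-inducible HSP70 genes had a different pattern between libraries. Hspa1b was at 3.81, 6.58 and 36.7 CPM in CTL 88, CTL 89 and CTL 94 and at 2.13, 1.86 and 3.39 CPM in the LIP libraries. The groups did not overlap, but CTL 94 was several times above every other library, and the log2 change of -2.67 missed the threshold (adjusted p = 0.151). Hspa1a, a near-identical copy between which reads may have been divided, did not pass the filter and had 13, 11 and 134 counts in the CTL libraries against 3, 7 and 7 in the LIP libraries. Hspa1b and Hspa1a were singled out after their values were seen.

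Among the J-domain proteins that load clients onto HSP70, 3 of 16 tested members were called and all 3 were lower. Dnajb1, the main cytosolic partner of the inducible HSP70, was at 101, 109 and 167 CPM in the CTL libraries and at 65.6, 64.2 and 77.0 CPM in the LIP libraries. Dnaja1 was at 416, 394 and 551 CPM against 290, 286 and 301 CPM. In both genes CTL 94 was the highest library and the 3 LIP libraries lay close together below all CTL libraries. The log2 changes were -0.87 and -0.63, and Dnajb4 changed by -0.62, with adjusted p-values of 0.0465, 0.0331 and 0.0375.

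Outside the cytosolic HSP70 and HSP90 systems fewer chaperones were called. Hspd1 and Hspe1 encode the matrix chaperonin HSP60 and its lid HSP10 and are transcribed from 1 shared, head-to-head region. Hspd1 was at 159, 129 and 154 CPM against 94.2, 101 and 97.2 CPM, and Hspe1 at 75.5, 70.8 and 63.6 CPM against 45.6, 45.0 and 38.5 CPM. Both groups were separate in each gene (log2 changes -0.59 and -0.70), though the Hspd1 record spans Hspe1 on the opposite strand and how strand was used in counting was not given in the sources used here. These were the 2 called genes of 12 tested mitochondrial chaperones and proteases. Cct5, a subunit of the cytosolic chaperonin TRiC, had a log2 change of -0.41 and was the called gene of 14 tested TRiC and prefoldin subunits, 7 of which were lower at an unadjusted p under 0.05 (7.2% of all genes tested, the background for each such count) and 2 of which were called without CTL 94. In the endoplasmic reticulum, Hsp90b1 (GRP94) had a log2 change of -0.44 and was called among 22 tested members, of which 4 were called lower and 1 higher without CTL 94. Hspa5 (BiP), singled out after its values were seen, was at 502, 414 and 324 CPM against 315, 286 and 282 CPM. CTL 94 lay nearest to the LIP libraries there, and the log2 change of -0.49 had an adjusted p of 0.137 with all libraries and of 0.00104 without CTL 94. Hsf1, the gene of heat shock factor 1, was at 62.7 to 83.9 CPM across the CTL libraries and 65.5 to 68.7 CPM across the LIP libraries (log2 change -0.13). No member of its list of small heat shock proteins and heat shock factors was called by edgeR or DESeq2. Low-level members may have had no DESeq2 adjusted p. Of 6 tested, 1 was lower and 1 higher (6.67% of all genes tested) at an unadjusted p under 0.05. The smallest p there belonged to Hspb6, a small heat shock protein, with 2.11 to 2.61 CPM in CTL libraries and 3.80 to 4.42 CPM in LIP libraries (log2 change 0.80, adjusted p = 0.222).

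To show what lies before these genes, the bases up to 250 before the annotated start were read from GRCm39 on the gene's strand and searched on both strands. A 3-unit heat shock element (GAANNTTCNNGAA) was found before 2 of 19 called cytosolic and mitochondrial chaperones, Hspd1 and Hspe1, which share the region, and before 50 of 13999 tested genes (0.357%). The 2-unit form (GAANNTTC or TTCNNGAA), which every 3-unit match also holds, was found before 6 of the 19 (Cct5, Dnaja1, Fkbp4, Hspd1, Hspe1 and Hsph1), before 4 of 60 chaperone genes that were not called (6.67%) and before 11.3% of all tested genes. The CCAAT box was found before 9 of the 19 and before 35.3% of all tested genes. A cyclic AMP response element (TGACGTCA) was found before 1 of the 19, Hsp90ab1, and before 1.85% of all. These matches are descriptions of sequence and not of binding. The stretches are shown for the gene with the smallest p, for the 3-unit element, for the constitutive HSP90 and for the called gene that rose with the smallest p, each written 5′ to 3′ on the gene's strand. For Hspd1 and Hsp90ab1 the stretch shown is only the part of the searched bases next to the start, up to the nearest exon of an annotated transcript, and matches farther out are not shown. Capitals mark the 2-unit heat shock element in Hsph1 (chr5:149559807-149560056, minus strand), the overlapping 3-unit elements in Hspd1 (chr1:55127184-55127290, minus strand), the cyclic AMP response element in Hsp90ab1 (chr17:45884232-45884342, minus strand) and the CCAAT boxes on either strand in Cirbp (chr10:80003362-80003611, plus strand).
Hsph1: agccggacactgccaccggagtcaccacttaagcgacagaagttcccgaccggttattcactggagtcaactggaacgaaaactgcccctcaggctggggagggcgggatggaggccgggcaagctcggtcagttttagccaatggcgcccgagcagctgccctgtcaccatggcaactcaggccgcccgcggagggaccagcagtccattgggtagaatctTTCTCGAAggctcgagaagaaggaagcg
Hspd1: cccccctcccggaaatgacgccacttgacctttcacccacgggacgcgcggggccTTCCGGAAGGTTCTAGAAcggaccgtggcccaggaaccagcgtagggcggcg
Hsp90ab1: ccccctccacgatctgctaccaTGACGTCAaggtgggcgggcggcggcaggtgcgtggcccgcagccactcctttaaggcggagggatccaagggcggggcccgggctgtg
Cirbp: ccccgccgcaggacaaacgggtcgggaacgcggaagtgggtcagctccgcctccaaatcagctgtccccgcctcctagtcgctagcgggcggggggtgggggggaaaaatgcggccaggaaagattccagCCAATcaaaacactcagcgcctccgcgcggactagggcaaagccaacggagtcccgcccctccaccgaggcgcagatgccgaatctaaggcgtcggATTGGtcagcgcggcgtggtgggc

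**Figure D2:**
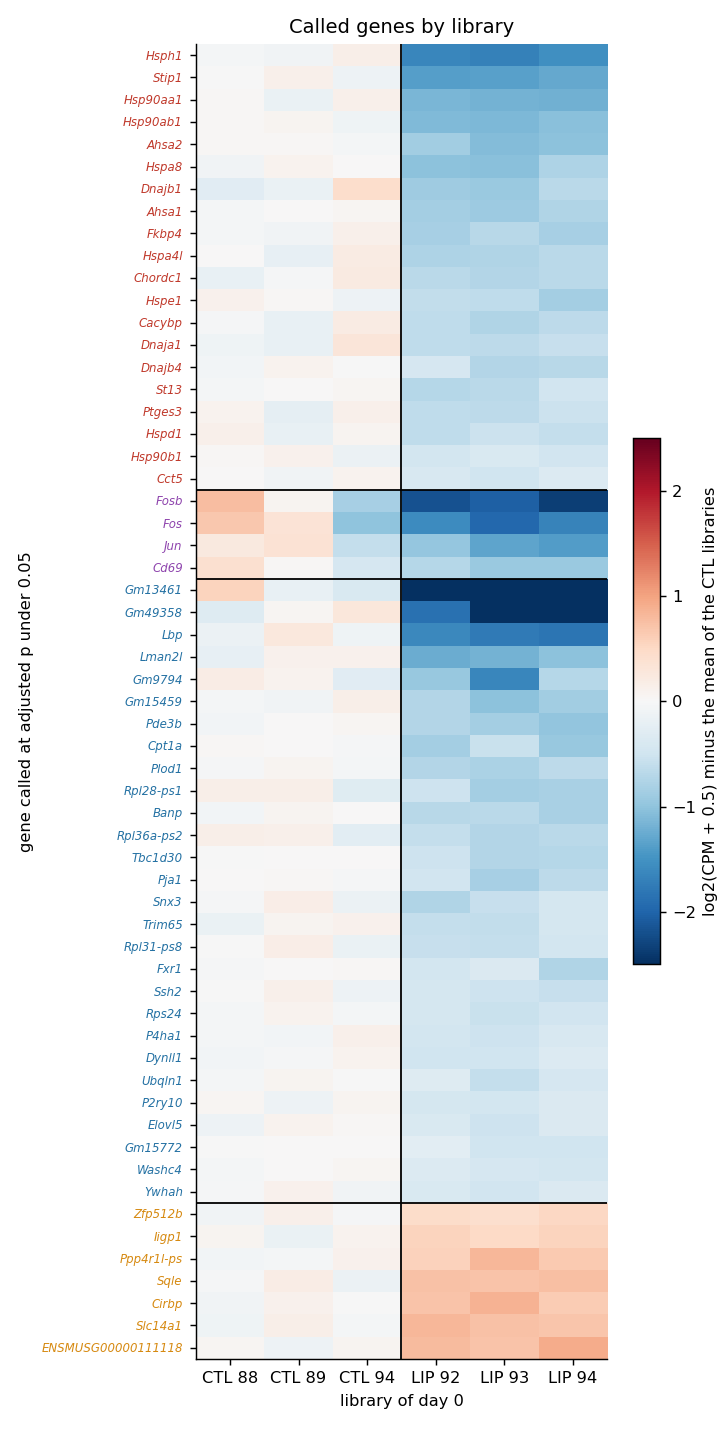
Rows are called genes and columns the 6 day 0 libraries, with color giving log2(CPM + 0.5) minus the gene's mean over the CTL libraries. The LIP columns do not overlap the CTL columns in any row, and CTL 94 lies between the other CTL columns and the LIP columns for the AP-1 and immediate early genes.

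The called AP-1 genes fell by more than most chaperones but varied more within the CTL group, where CTL 94 stood apart from the other libraries. Fosb was at 216, 132 and 71.0 CPM in CTL 88, CTL 89 and CTL 94 and at 27.8, 30.4 and 24.5 CPM in the LIP libraries. Fos was at 179, 143 and 56.2 CPM against 37.7, 28.7 and 35.1 CPM. Jun was at 319, 347 and 178 CPM against 138, 109 and 102 CPM. In each gene CTL 94 was the lowest CTL library and still above the highest LIP library. The log2 changes were -2.34 ± 0.31 (SE), -1.89 ± 0.32 and -1.28 ± 0.20, with adjusted p-values of 0.00718, 0.0286 and 0.0199. These 3 were the called genes among 7 tested AP-1 members, 6 of which were lower at an unadjusted p under 0.05. None was called without LIP 93 or without LIP 94, 1 without CTL 88 and 2 without LIP 92. Without CTL 94 those 6 were called lower, among them Junb (482, 410 and 169 CPM against 257, 181 and 186 CPM), whose groups overlapped through CTL 94.

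Of 22 other immediate early genes, Cd69, an early activation marker that holds T cells in tissue, was the called one. It was at 425, 325 and 238 CPM in the CTL libraries and at 194, 167 and 168 CPM in the LIP libraries (log2 change -0.90, adjusted p = 0.0375). All 22 genes had a log2 change below 0, with a median of -0.30, and 13 were lower at an unadjusted p under 0.05. Without CTL 94, 12 were called lower. The orphan nuclear receptor gene Nr4a1, a readout of T cell receptor signaling singled out after its values were seen, was at 47.7, 44.1 and 19.6 CPM against 17.2, 13.3 and 15.6 CPM (adjusted p = 0.0723, and 8.33e-06 without CTL 94). Among the feedback inhibitors, Tnfaip3 (A20), which restrains NF-κB, was at 915, 631 and 182 CPM against 206, 138 and 119 CPM, and CTL 94 fell inside the range of the LIP libraries. Its log2 change of -1.90 had an adjusted p of 0.0872 with CTL 94 and of 8.33e-06 without it. Dusp1, a MAP kinase phosphatase, was at 219, 180 and 89.2 CPM against 93.4, 70.8 and 72.4 CPM, again overlapping through CTL 94 (log2 change -1.04, adjusted p = 0.106, and 1.84e-05 without it). None of the 24 tested genes of that list was called by edgeR or DESeq2, and 8 were lower at an unadjusted p under 0.05. Without CTL 94, edgeR called 8 of them lower.

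The chaperones and the immediate early genes thus differed in where CTL 94 lay. On a scale where 0 is the mean of CTL 88 and CTL 89 and 1 is the LIP mean, taken on log2(CPM + 0.5), CTL 94 had a median position of -0.15 over the 20 called chaperones (range -1.11 to 0.42), with 14 below 0. Over the 4 called AP-1 and immediate early genes its median position was 0.59 (range 0.48 to 0.67). For the 28 other lower genes and the 8 higher genes the medians were 0.02 and 0.05. The mitochondrial RNA share was lower in every LIP library, and its part in the lower chaperone and immediate early levels was not tested. In bulk RNA, fewer cells of a type and less RNA per cell cannot be told apart.

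**Figure D3:**
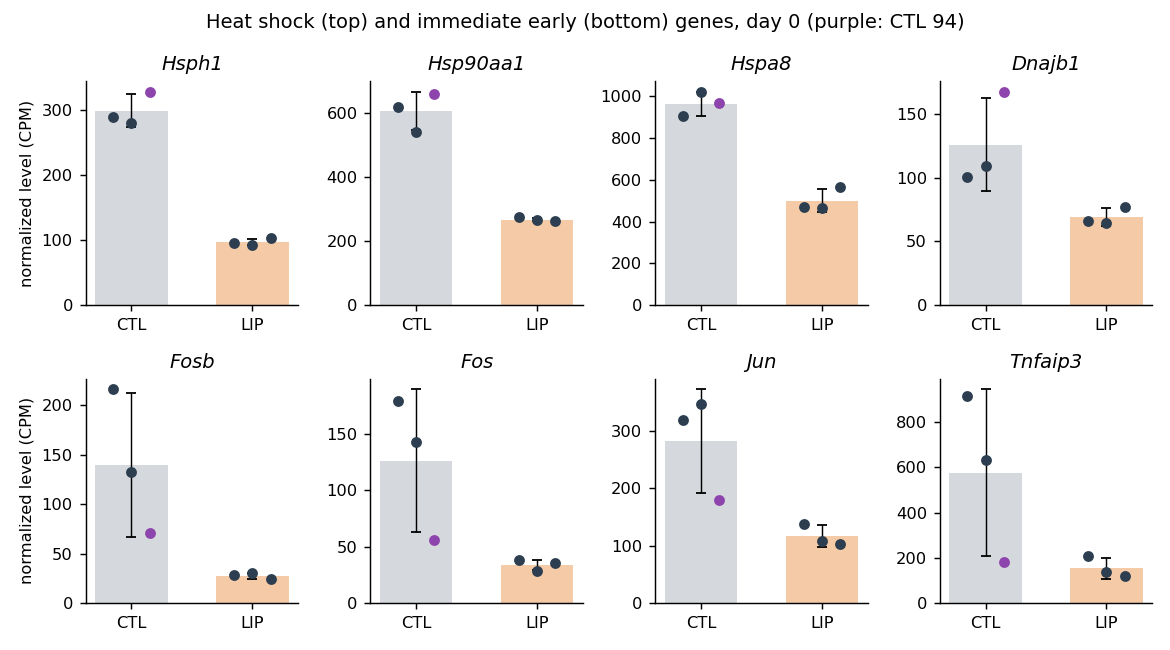
Points are single libraries, bars the mean and error bars the SD of 3 libraries per group, in CPM, for 4 heat shock genes (top) and 4 genes of the immediate early response (bottom), with CTL 94 in purple. CTL 94 is the highest library for Hsph1, Hsp90aa1 and Dnajb1, the lowest CTL library for Fosb, Fos and Jun, and inside the LIP range for Tnfaip3.

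Most of the other 28 lower genes belonged to none of the lists. Pde3b, a phosphodiesterase that breaks down cyclic AMP, was at 208, 219 and 224 CPM in the CTL libraries and at 131, 120 and 109 CPM in the LIP libraries (log2 change -0.85, adjusted p = 0.000402). Lman2l, a cargo lectin of the early secretory pathway, was at 53.6, 66.6 and 67.4 CPM against 26.1, 27.3 and 30.4 CPM (log2 change -1.16, adjusted p = 0.000421). Cpt1a, the carnitine palmitoyltransferase that admits long-chain fatty acids to mitochondria, was at 164, 161 and 156 CPM against 89, 109 and 82.5 CPM (log2 change -0.78). Banp, a nuclear DNA-binding protein, had a log2 change of -0.73. In Pde3b, Lman2l and Cpt1a the groups were separate, and CTL 94 was not set apart from the other CTL libraries. Rps24, a protein of the small ribosomal subunit, was at 1295, 1423 and 1296 CPM against 986, 909 and 958 CPM (log2 change -0.49, adjusted p = 0.0174). It was the called gene among 81 tested cytosolic ribosomal proteins, of which 72 had a log2 change below 0 and 32 were lower at an unadjusted p under 0.05. DESeq2 called 14 of them, and edgeR 2 without CTL 94 and 11 without CTL 89. The median over the 81 was -0.19, with -0.09 without CTL 94 and -0.29 without CTL 89.

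Several lower records rest on few or shared reads. Gm13461, a pseudogene record with 30, 21 and 16 counts in the CTL libraries and none in the LIP libraries, was at least 21.6-fold higher in the CTL group when 3 counts over the LIP group are taken as the limit of a count of 0. It shares 70.7% of its 31-base words with Ran, whose log2 change was -0.03. Gm49358 had 51 counts over the CTL libraries and 2 over the LIP libraries, a ratio of 24.6 per count sequenced (exact 95% interval 6.47 to 209, covering counting error only), and its record overlaps Nt5dc3 (log2 change 0.16) and Ttc41 on the same strand. Lbp, which encodes lipopolysaccharide-binding protein, had 18, 31 and 21 counts against 5, 4 and 4. Its groups were separate at a low level. The pseudogene records Rpl31-ps8, Rpl28-ps1 and Rpl36a-ps2 share every 31-base word with Rpl31, Rpl28 and Rpl36a, and none of those parent genes was called.

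The 8 higher genes had log2 changes of 0.47 to 0.85 and formed no single group. Cirbp, the cold-inducible RNA-binding protein, was at 29.0, 33.0 and 30.5 CPM in the CTL libraries and at 50.6, 56.8 and 48.4 CPM in the LIP libraries. The groups were separate with CTL 94 among the CTL libraries, and the log2 change was 0.75 ± 0.10 (SE, adjusted p = 0.00718). Rbm3, the other gene of that list, was at 238, 204 and 289 CPM against 297, 303 and 289 CPM (log2 change 0.28, adjusted p = 0.266, and 0.0108 without CTL 94), and CTL 94 matched the LIP libraries. Sqle, the squalene epoxidase of cholesterol synthesis, was at 16.6, 19.4 and 15.2 CPM against 28.4, 28.2 and 29.1 CPM (log2 change 0.74, adjusted p = 0.0232). It was the called gene of 25 tested cholesterol synthesis and SREBP2 target genes, of which 20 had a log2 change above 0 and 13 were higher at an unadjusted p under 0.05, with a median of 0.32. Without CTL 94, 5 were called higher. Scd2, Idi1 and Fdps, singled out after their values were seen, had log2 changes of 0.81, 0.50 and 0.59, with adjusted p-values from 0.0723 to 0.116 with all libraries and from 0.00111 to 0.0399 without CTL 94. Slc14a1, a urea transporter, was at 19.9, 23.7 and 20.8 CPM against 38.6, 35.7 and 34.7 CPM (log2 change 0.76). Zfp512b, a zinc finger protein, the pseudogene record Ppp4r1l-ps and the unnamed record ENSMUSG00000111118 had log2 changes of 0.47, 0.71 and 0.85. All 8 were also called without CTL 94, and none remained called in every fit that left out 1 library.

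Iigp1, an interferon-inducible GTPase that acts on pathogen vacuoles, was also among the 8, at 70.0, 59.2 and 71.3 CPM in the CTL libraries and at 98.6, 94.5 and 98.8 CPM in the LIP libraries (log2 change 0.54, adjusted p = 0.0199). It was the called gene of 66 tested interferon-stimulated genes. Of these, 48 had a log2 change above 0 and 14 were higher at an unadjusted p under 0.05, with a median of 0.11, and 3 were called higher without CTL 94. The groups' summed levels were close, at 7028 ± 152 CPM for CTL and 7130 ± 166 CPM for LIP libraries (SD, n = 3 each). Among 11 inflammasome and pyroptosis genes none was called by edgeR or DESeq2, and 3 were higher at an unadjusted p under 0.05. Low-level genes of this list may have had no DESeq2 adjusted p. The members with the smallest p were Gsdmd, the pore-forming gasdermin D (log2 change 0.27, adjusted p = 0.234), and Casp1, the protease that cleaves it (log2 change 0.56, adjusted p = 0.258), which was called without CTL 94 (adjusted p = 0.0398). The groups overlapped for Casp1, and its change ranged from 0.33 to 0.78 over the fits that left out 1 library.

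**Figure D4:**
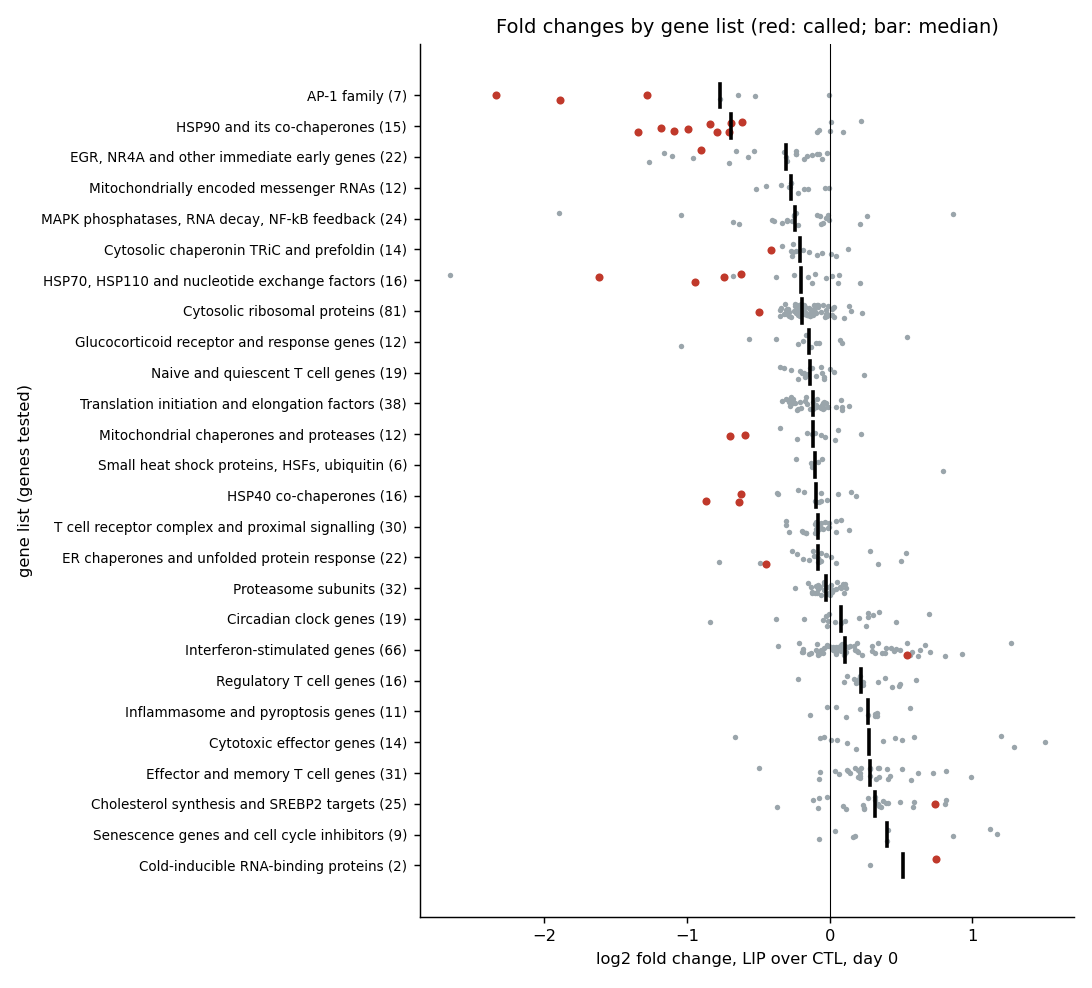
Each row is a gene list and each point a tested member, with its log2 change on day 0 on the horizontal axis. Called genes are red and bars are medians, and the HSP90 and AP-1 lists lie farthest below 0, with medians of -0.69 and -0.77 (-0.50 without CTL 88 for the AP-1 list).

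None of the 31 tested effector and memory T cell genes was called by edgeR or DESeq2 with all libraries, whereas edgeR called 4 higher and 1 lower without CTL 94. At an unadjusted p under 0.05, 5 were higher and 1 lower, and the median log2 change was 0.28 (0.50 without CTL 94, 0.04 without CTL 89 and 0.17 without LIP 94), with 28 genes above 0. CTL 89 was the lowest library of this list. The summed level was 5252, 3778 and 5432 CPM in CTL 88, CTL 89 and CTL 94 and 5158, 5751 and 5972 CPM in the LIP libraries, so the groups overlapped. Bcl6, the repressor that directs follicular helper cells, had a log2 change of -0.49 (adjusted p = 0.166, and 0.0355 without CTL 94).

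Regulatory T cell genes also had their lowest sum in CTL 89. Their summed level was 876, 616 and 772 CPM in the CTL libraries and 884, 886 and 962 CPM in the LIP libraries, and 15 of 16 tested members had a log2 change above 0 with a median of 0.22 (0.35 without CTL 88). Il2ra, the high-affinity IL-2 receptor chain, was at 100, 85.5 and 85.7 CPM against 111, 113 and 118 CPM (log2 change 0.34, adjusted p = 0.112). Ikzf2 (Helios) was at 216, 136 and 212 CPM against 253, 259 and 277 CPM (log2 change 0.49, adjusted p = 0.162, and 0.0293 without CTL 94). The Ikzf2 change ranged from 0.30 to 0.59 over the fits that left out 1 library. The groups were separate in both genes, yet the lineage factor Foxp3, singled out after its values were seen, overlapped at 52.3 to 72.0 CPM against 63.9 to 80.4 CPM. No member passed the test in edgeR, 3 were higher at an unadjusted p under 0.05, and 1 was called higher by DESeq2 and 1 by edgeR without CTL 94.

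Cytotoxic genes had log2 changes of both signs. Prf1, the pore-forming perforin, was at 53.6, 57.5 and 39.9 CPM in the CTL libraries and at 34.5, 29.2 and 31.9 CPM in the LIP libraries (log2 change -0.66, adjusted p = 0.064, and 0.000721 without CTL 94). Ctsw, a cathepsin of cytotoxic lymphocytes, was at 24.8, 20.1 and 34.4 CPM against 39.8, 37.2 and 42.3 CPM (log2 change 0.59, adjusted p = 0.147, and 0.00192 without CTL 94). The summed natural killer cell markers were at 10.8, 6.45 and 15.3 CPM against 13.7, 15.8 and 17.6 CPM, and their part in the Ctsw value was not tested. None of the 14 tested cytotoxic genes passed in edgeR with all libraries, 4 being higher and 1 lower at an unadjusted p under 0.05, and DESeq2 called 1 in each direction. Without CTL 94, edgeR called 3 higher and 1 lower.

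The study examined several genes by other assays or tied them to senescence. Because it chose some of them on these samples, their direction is not independent evidence. Mmp9, a secreted matrix metalloproteinase, was at 1.49, 0.658 and 2.18 CPM in the CTL libraries and at 4.10, 2.79 and 2.51 CPM in the LIP libraries (log2 change 1.13 ± 0.42 SE, adjusted p = 0.26). Ccr6, a chemokine receptor of Th17 cells, was at 2.15, 1.45 and 3.05 CPM against 3.19, 5.28 and 6.49 CPM (log2 change 1.17 ± 0.35 SE, adjusted p = 0.177, and 0.0486 without CTL 94). The LIP libraries lay above all CTL libraries in both genes, with 3 counts worth up to 0.497 CPM. Klrg1, an inhibitory receptor of terminally differentiated cells, had a log2 change of 0.86 (adjusted p = 0.246), and Cx3cr1 was below the filter at 0.993, 0 and 0.726 CPM against 1.82, 1.86 and 0.885 CPM.

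The surface pair used to define senescence-associated T cells overlapped between groups. Pdcd1 (PD-1) was at 15.9, 8.03 and 15 CPM against 13.7, 12.4 and 17.0 CPM (log2 change 0.16, adjusted p = 0.793), and Tnfsf8 (CD153) at 103, 97.3 and 119 CPM against 119, 130 and 113 CPM (log2 change 0.18, adjusted p = 0.402). Glb1, the lysosomal β-galactosidase, had a log2 change of 0.40 (adjusted p = 0.216). Ifnb1, Il1b and Il6 had no count in any of the 6 libraries, and Il2 and Spp1 (osteopontin) did not pass the filter. Of 18 genes in the senescence list 9 were tested, and none was called by edgeR or DESeq2. Members at low levels may have had no DESeq2 adjusted p. At an unadjusted p under 0.05, 4 were higher, and the median log2 change was 0.40 (0.11 without CTL 89). In the edgeR fit without CTL 94, 1 was called higher.

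Neither edgeR nor DESeq2 called any of the 32 proteasome subunits, whose median log2 change was -0.02 and of which 1, Psmb2, was lower at an unadjusted p under 0.05. The same held for 30 genes of the T cell receptor complex and its proximal signaling, with a median of -0.08 (-0.14 without CTL 94, and -0.05 without CTL 89 or without LIP 93) and 5 lower at an unadjusted p under 0.05. Trac, the receptor's α constant chain, and Ptpn6, the phosphatase SHP-1, led the receptor list, each with a log2 change of -0.31, and these 2 were called without CTL 94 (adjusted p = 0.0199 and 0.00675). Among 19 naive and quiescent T cell genes edgeR called none, 3 were lower at an unadjusted p under 0.05 and DESeq2 called 1 lower, with Btg1 and Actn1 leading at -0.32 and -0.35. Without CTL 94, edgeR called 4 of them lower, Btg1 and Actn1 among them. Translation factors showed 14 of 38 genes lower at an unadjusted p under 0.05, none called by edgeR with all libraries, 3 without CTL 94 and 3 by DESeq2, with Pabpc1, the poly(A)-binding protein, at -0.33 and Eif3c, a subunit of initiation factor 3, at -0.22. The 12 mitochondrially encoded mRNAs had a median of -0.27, and 7 were lower at an unadjusted p under 0.05 with none called by edgeR and 2 by DESeq2, and with 3 lower and 1 higher called by edgeR without CTL 94. Among 19 circadian clock genes edgeR called none, 4 were higher and 1 lower at an unadjusted p under 0.05, and DESeq2 called 1 higher. The edgeR fit without CTL 94 called 3 higher. Tef, an output factor of the clock, was at 34.1, 42.0 and 40.8 CPM against 52.9, 54.3 and 54.9 CPM (log2 change 0.47, adjusted p = 0.0671, and 0.0223 without CTL 94), whereas Per1, a clock repressor that also responds to signals, had a log2 change of -0.37 (adjusted p = 0.142). Of 12 glucocorticoid receptor and response genes, led by Dusp1 and Per1, neither tool called any with all libraries, and 4 were lower and 1 higher at an unadjusted p under 0.05. Without CTL 94, edgeR called 1 lower.

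The day 0 pattern was set beside the same contrast after 2 days of stimulation, which used other libraries. On day 2 edgeR called no gene at all, the smallest adjusted p being 0.0568, whereas DESeq2 called 489. Of the 52 lower genes, 50 were tested on day 2, and 27 had a log2 change below 0 and 23 above 0, with a median of -0.03 against -0.70 on day 0. At an unadjusted p under 0.05, 1 of the 50 was lower on day 2 (8.2% of all 14041 genes tested there) and 6 were higher (8.33%). The 20 called chaperones had a median log2 change of -0.04 on day 2, with 13 below 0 and 7 above 0. The difference between days was tested for each gene in 1 fit over all 12 libraries. It reached an unadjusted p under 0.05 for 17 of the 20 chaperones and 44 of the 60 called genes, against 15.9% of 15475 genes. The genes were selected for their day 0 change, which enters that difference. After adjustment 4 of the 60 passed, against 0.0517% of all. Leaving out LIP 90 of day 2 made these 33, and leaving out any other library 1 to 6. Hsp90ab1, at -1.09 on day 0, was at 0.35 on day 2 (difference 1.46, adjusted p = 0.000672), and Hspa8, at -0.94, was at 0.46 (difference 1.42, adjusted p = 0.0168).

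Some called genes kept their direction on day 2. Fosb was the lower gene with an unadjusted p under 0.05 on day 2, at a log2 change of -1.62, and the edgeR test of its difference between days gave an adjusted p of 0.632. Fos, by contrast, was at -1.89 on day 0 and 0.12 on day 2 (difference 2.04, adjusted p = 0.0839). Cirbp was higher on both days, with log2 changes of 0.75 and 0.58, the second also at an unadjusted p under 0.05. Sqle was at 0.74 on day 0 and -0.53 on day 2.

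**Figure D5:**
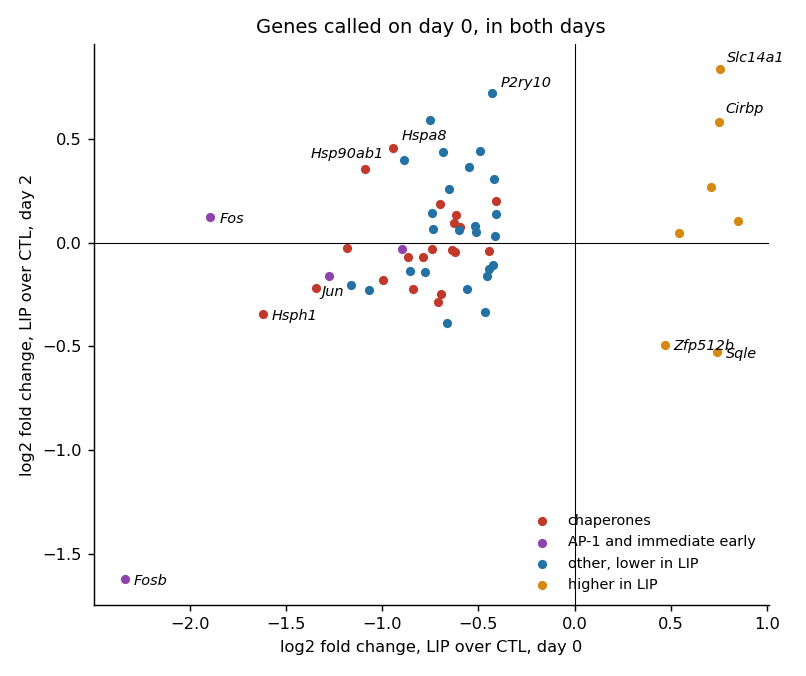
Each of 56 points is a called gene tested on both days, with its log2 change on day 0 on the horizontal axis and on day 2 on the vertical axis, colored by role, leaving out Gm13461, whose day 0 change lies beyond the horizontal range. The chaperones lie left of 0 on day 0 and around 0 on day 2, with a median of -0.04.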

How the data were processed

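Total RNA of splenic CD4+ T cells was converted to strand-specific libraries after ribosomal RNA depletion. Per the labels and the methods of the study, the authors trimmed reads with Trimmomatic, mapped them to GRCm39 and estimated gene-level values with RSEM and Bowtie2 (RSEM 1.3.0 in the submitters' processing notes). The methods name HISAT2 for the mapping, which the processing notes do not list. The deposited matrix holds these expected counts for 55414 gene records, not normalized. Expected counts are not always whole, and the 73267 non-whole values were rounded before testing. Reads shared by near-identical genes are divided by RSEM's estimate, so pseudogene and paralog values are uncertain. The other deposited tables, 1 per day, hold the authors' own CPM values, fold changes and p-values and were not used.

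Genes were filtered with filterByExpr, scaled by TMM and tested with the quasi-likelihood test of edgeR 4.0.16 in R 4.3.3, LIP against CTL, on the 6 day 0 libraries, with Benjamini-Hochberg adjustment over all 14064 tested genes and a threshold of 0.05. Levels are CPM on TMM-scaled library totals. The SE of a log2 change was derived from the test, as its absolute value divided by the square root of the F statistic. Depth was 6249018 to 7845676 counts per library, so levels near 3 counts (0.395 to 0.497 CPM) are imprecise. The day 2 contrast and the difference between days were fitted in the same way. DESeq2 1.42.0, RLE and upper-quartile scaling, other count filters, a fit of all 12 libraries and fits leaving out each library were alternatives. DESeq2 ran with its default filter on mean count, which can leave low-level genes without an adjusted p. Such genes count as not called by DESeq2. Scripts were tested on simulated data. Motifs were searched in GRCm39 sequence by exact match.

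Named genes were the called higher genes, the 20 lower genes with the smallest p, up to 4 called or 2 uncalled members per list with the smallest p, genes the study measured by other assays, and defining cell markers. Others are named as such, and a few genes that meet the rule are not reported here. The contrast, the gene lists and the named genes were chosen with earlier results of these data known.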

Additional observations from a re-analysis of the deposited data

Results flagged for a closer look

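For 5 of the genes named above the LIP change differed between day 0 and day 2 at an adjusted p under 0.05 in the edgeR test of the difference itself (day 2 minus day 0, all 12 libraries). Hsp90ab1 had a difference of 1.46 log2 units (adjusted p = 0.000672), and Hspa8 had 1.42 (adjusted p = 0.0168). The pseudogene record Gm15459, which shares 92% of its 31-base words with Hspa8, had 1.3 (adjusted p = 0.023). Since reads may have been shared, it is not taken as a separate observation. Zfp512b had a difference of -0.94 (adjusted p = 0.0263), from a log2 change of 0.47 on day 0 to -0.49 on day 2. Ctsw had a difference of -2.15 (adjusted p = 0.023), from 0.59 on day 0 to -1.58 on day 2. All 5 genes were selected by their day 0 p-values, and the day 0 change is part of the difference.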

How the results depend on the processing

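The day 0 counts of 52 lower and 8 higher genes became 168 and 38 by DESeq2, 382 and 263 without a count filter, 11 and 1 when all 12 libraries shared 1 fit, and 120 and 27 without the libraries numbered 94 of both groups. Leaving out 1 library gave 13 to 401 lower and 0 to 257 higher genes, and the highest values came without CTL 94. The 4 called genes with a difference between days became 38 without a count filter and 1 to 33 when 1 library was left out, the 33 without LIP 90 of day 2. RLE scaling, upper-quartile scaling and a minimum of 10 counts in every library kept each of these counts within 1.5 times. Of the 60 called genes, DESeq2 called 52, the fit without CTL 94 called 60, the fit without LIP 93 called 13 and the fit without CTL 88 called 17. Pdcd1 reversed to a log2 change of -0.10 without CTL 89 (range -0.10 to 0.33 over the fits that left out 1 library), and the cause was not tested. No other named gene reversed, and 666 named-gene values kept direction and side of the threshold, 116 lost the call and 46 gained it. No paired analysis was possible because the groups share only 1 library number per day, and the sources used here do not say what the number stands for.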
